A study of Mus musculus with 12 samples.

Results

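A set of 10 genes used to describe macrophages in tissue, the scavenger and endocytic receptors Mrc1, Msr1, Stab1, Cd163 and Marco, the galactose-binding lectins Clec10a and Mgl2, the folate receptor Folr2 and the secreted proteins Chil3 and Retnla, were followed by RNA-Seq in 12 mouse 4T1 mammary tumours. They were named by symbol and not ranked by their values, but earlier results of these data were known when they were chosen. They are 10 of 35944 genes for which the deposited transcript estimates could be summed. Of these, 8 are among the 15459 genes that had at least 10 estimated reads in at least 3 tumours and were tested. Marco and Retnla were below that level.

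Macrophages take up modified lipoproteins, mannose-rich glycoproteins, haptoglobin-haemoglobin complexes and dying cells through scavenger receptors and C-type lectins, and several of these receptors are used to tell macrophage states apart. Interleukin-4 and interleukin-13, acting through Il4ra and the transcription factor Stat6, induce Mrc1, Clec10a, Mgl2, Chil3 and Retnla in cultured mouse macrophages, a state known as alternative activation. Cd163, Stab1 and Folr2 are found on tissue macrophages and on perivascular tumour-associated macrophages (TAMs), and Cd163 is further induced by interleukin-10 and glucocorticoid.

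The tumours grew from 100000 4T1 cells placed under the flank skin of BALB/c mice, females aged 6 to 8 weeks, which have an intact immune system. Extracellular vesicles (EVs) from MS-1 cells, a mouse endothelial line, were loaded by electroporation with a miRNA mimic, and 3 µg were injected around the tumour every 2 days from day 5, with harvest on day 21. By design the 4 groups of 3 tumours differed in the mimic, though their libraries also differed, as given below. The mimic was the nematode miRNA cel-miR-67 in the ctrl group and either miR-222-3p, miR-142-5p or miR-183-5p in the others. Every group, ctrl included, received EVs, so no tumour shows the state without them. The study asked what these EVs do to the tumour, and the comparisons ask whether the 10 macrophage genes differ between the groups. The labels do not say that each tumour came from a mouse of its own, and the p-values below measure the spread between these tumours.

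The sequence through which each mimic would pair with an mRNA is its seed, bases 2 to 8 counted from the 5′ end, and is shown because it sets which of the 10 genes could be paired directly. The mature mouse sequences of RefSeq (GRCm38.p6) are given 5′ to 3′, with the seed in capitals.
miR-142-5p (mmu-miR-142a-5p): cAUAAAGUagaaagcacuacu
miR-183-5p (mmu-miR-183-5p): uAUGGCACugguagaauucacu
miR-222-3p (mmu-miR-222-3p): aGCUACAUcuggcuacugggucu

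The 3 seeds differ from one another. The 3′ UTR of the most abundant protein-coding transcript of each of the 10 genes, from 121 bases in Marco to 2518 bases in Msr1, was searched for the reverse complement of each seed. A single match was found. It lay in Msr1-202, at bases 567 to 574 of its 3′ UTR (chr8:39605398-39605405, minus strand, GRCm38), and was an 8mer for miR-142-5p, the seed match followed by A. The 30 bases around it (chr8:39605387-39605416) read, with the match in capitals:
Msr1-202: gtttttttctaACTTTATAagactaattac

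Of 14469 tested genes with a 3′ UTR, 14.3% held at least 1 match to miR-142-5p, 9.36% to miR-183-5p and 9.62% to miR-222-3p (1, 0 and 0 of the 10 members), and no match says only that these letters are not in the window searched. The shorter coding transcript Msr1-201, with a 3′ UTR of 47 bases, lacked the match.

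Total estimated reads were 20285968 to 27021401 per tumour. Transcripts of macrophage markers were abundant in every tumour. The 12 genes summed to 2500 to 9458 TPM (transcripts per 1000000, a level that allows for transcript length). Apoe (636 to 4033 TPM) and Lyz2 (663 to 2560 TPM) had the highest medians. C1qa was at 397 to 1098 TPM, Csf1r at 53.8 to 130 TPM and Adgre1 at 12.0 to 34.2 TPM. The 8 carcinoma markers summed to 1723 to 2641 TPM, and such sums do not measure shares of cells. Markers of tissue-resident macrophages were lower, 88.3 to 191.9 TPM over 9 genes, and uneven. Pf4 and Cbr2 had the highest medians of this list, at 80.7 and 32.3 TPM. Fcna, Gas6 and Timd4 had medians under these. Vsig4 and Lyve1 reached at most 0.583 and 1.12 TPM, and Cd209f and Cd209g at most 0.339 and 0.173 TPM. Eosinophil markers summed to at most 0.979 TPM over 6 genes. The share of reads given to the mitochondrial pseudogene Gm28661 rather than to mt-Co2 was 7.13% to 41.8% in 8 libraries and at most 0.324% in tumour 3 of miR-183-5p and all 3 tumours of miR-222-3p, so that the miR-222-3p group and this set of libraries cannot be told apart. In miR-183-5p tumour 3 the 8 skeletal muscle markers summed to 396 TPM, against 13.8 to 26.4 TPM in the other tumours.

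The levels of the 10 genes ran from abundant to undetected. Msr1 was the highest, with a median of 147.8 TPM over the 12 tumours, followed by Stab1 (86.8 TPM), Mgl2 (43.4 TPM), Mrc1 (34.4 TPM), Folr2 (14.3 TPM), Clec10a (8.44 TPM), Cd163 (1.66 TPM), Chil3 (0.601 TPM), Retnla (0.237 TPM) and Marco, which was at 0 in 10 of 12 tumours. The order Msr1 above Stab1, Stab1 above Mgl2 and Mrc1 above Folr2 held in 12 of 12 tumours, whereas Mgl2 exceeded Mrc1 in 6 of 12 and these neighbours do not differ beyond their spread. These levels sum all transcripts of a gene. Over protein-coding transcripts alone, Mgl2 stood above Stab1 in every tumour. Values were 56.5 against 11.1 TPM in ctrl tumour 1 and 16.6 against 15.5 TPM in miR-183-5p tumour 3. Cd163 exceeded Chil3 in 10 tumours and Chil3 exceeded Retnla in 8. Msr1 stood above 97.4% of all genes by mean TPM, and Cd163 above 65.8%.

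**Figure D1:**
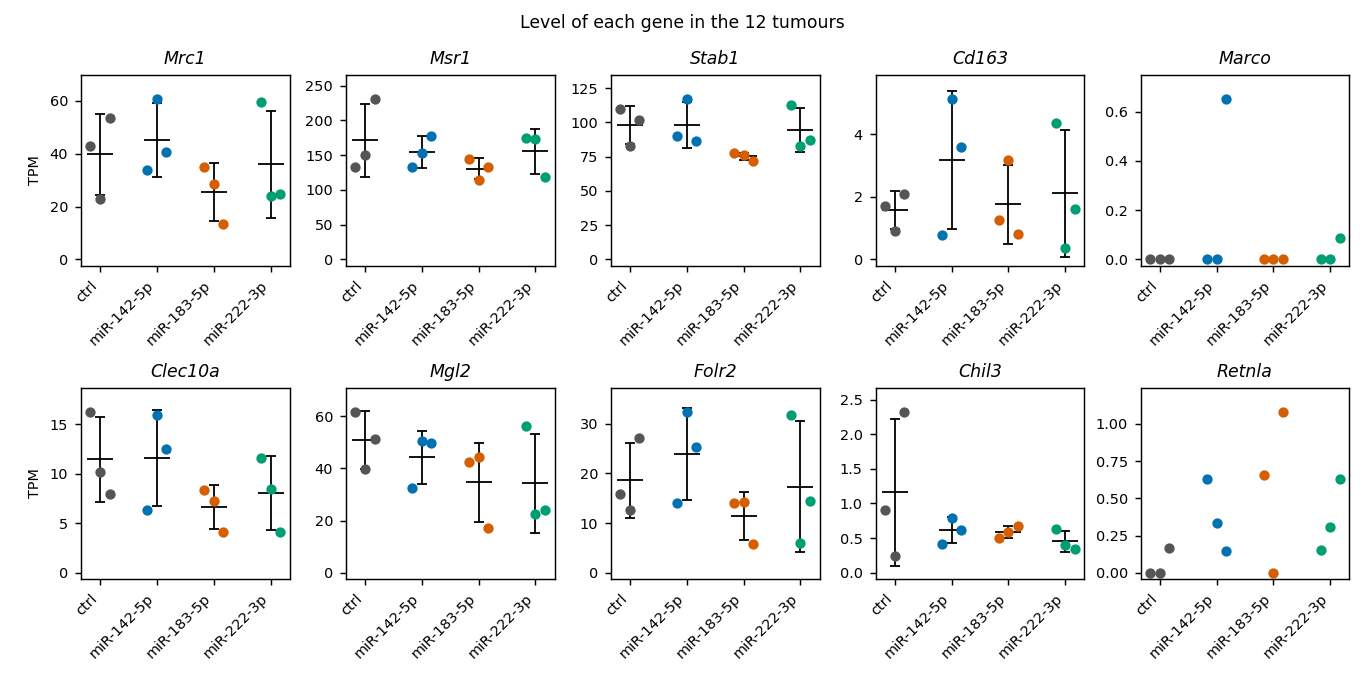
Level in TPM (vertical axis, from 0, own scale per gene) of each gene in each of the 12 tumours (points, in the order of tumours 1 to 3) by group, with the group mean (horizontal line) and SD (whiskers, n = 3), which are left out for Marco and Retnla. Stab1 in the miR-183-5p tumours lies at 71.9 to 77.4 TPM, under the other 9 tumours, while the groups of the other genes overlap.

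Mrc1, the mannose receptor that takes up mannose- and fucose-ending glycoproteins, was at 43.0, 22.9 and 53.3 TPM in the ctrl tumours and at 33.8, 60.8 and 40.7 TPM in the miR-142-5p tumours. It was at 35.0, 28.3 and 13.4 TPM in the miR-183-5p tumours and at 59.4, 23.9 and 24.7 TPM in the miR-222-3p tumours. Every group overlapped ctrl, and miR-183-5p tumour 3 was the lowest of the 12. In counts normalised for depth and transcript length, Mrc1 averaged 1829 ± 776 (SD, n = 3) in the miR-183-5p tumours and 2804 ± 1066 (SD, n = 3) in ctrl, a log2 fold change of -0.62 with a standard error (SE) of 0.47 (DESeq2, adjusted p = 1). Without miR-183-5p tumour 3 it was -0.31, and without ctrl tumour 2 it was -0.90. Against the miR-142-5p tumours, at 3203 ± 997 (SD, n = 3), the log2 fold change was -0.81 (SE 0.47, DESeq2 adjusted p = 0.75), and the normalised counts of these groups did not overlap, although the TPM values did. That value was -0.50 without miR-183-5p tumour 3 and -0.52 without miR-142-5p tumour 2. It was -1.08 without miR-183-5p tumour 1 (unadjusted p = 0.049, DESeq2 adjusted p = 0.73).

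Msr1, the class A scavenger receptor for modified lipoproteins and polyanions, was the most even of the receptors with Stab1. Its ctrl tumours were at 132, 151 and 231 TPM, the miR-142-5p tumours at 133, 154 and 178 TPM, the miR-183-5p tumours at 145, 115 and 133 TPM and the miR-222-3p tumours at 175.0, 173 and 118 TPM. All groups overlapped, and ctrl tumour 3 stood above the rest. Against ctrl, miR-183-5p gave a log2 fold change of -0.36, miR-222-3p of -0.14 and miR-142-5p of -0.13, each with an SE of 0.18, and none passed the DESeq2 test (adjusted p = 1 in each). Without ctrl tumour 3 the first of these was -0.13.

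Because Msr1 holds the only seed match, its coding transcripts were set apart. Msr1-202, which carries the miR-142-5p match, was at 99.3, 86.5 and 106 TPM in ctrl and at 86.2, 90.7 and 85.0 TPM in the miR-142-5p tumours. The means were 97.4 ± 10.1 and 87.3 ± 3.04 TPM (SD, n = 3), a difference of -10.1 TPM with an exact two-sided permutation p of 0.2, where 0.1 is the smallest that 3 against 3 tumours allow. Its share of the sum of Msr1-201 and Msr1-202 was 76.4% ± 6.14 (SD, n = 3) in ctrl and 74.7% ± 2.41 (SD, n = 3) with miR-142-5p (exact permutation p = 0.8). No difference from ctrl in the transcript with the match was detectable in these tumours. In the miR-183-5p tumours Msr1-202 was at 81.2, 81.6 and 65.0 TPM, all under the ctrl tumours (exact permutation p = 0.1, the smallest allowed). Of all genes, 9.17% did not overlap in this comparison, and no such share was taken over transcripts.

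Stab1, a class H scavenger receptor of macrophages and sinusoidal endothelium that binds acetylated lipoprotein and phosphatidylserine, was at 109, 82.5 and 101.7 TPM in ctrl and at 77.4, 75.9 and 71.9 TPM in the miR-183-5p tumours. It was at 89.9, 117 and 86.5 TPM with miR-142-5p and at 113, 82.9 and 87.0 TPM with miR-222-3p. The 3 miR-183-5p tumours were the lowest of the 12 and lay close together, with a coefficient of variation of their normalised counts of 3.79%, against 12.1% to 19.6% in the other groups. Normalised counts were 3514 ± 133 in the miR-183-5p tumours, 4538 ± 888 in ctrl, 4562 ± 878 with miR-142-5p and 4305 ± 522 with miR-222-3p (SD, n = 3 each). The log2 fold change of miR-183-5p was -0.37 against ctrl (SE 0.17, unadjusted p = 0.035, DESeq2 adjusted p = 1), -0.38 against miR-142-5p (SE 0.17, unadjusted p = 0.031, DESeq2 adjusted p = 0.55) and -0.29 against miR-222-3p (SE 0.17, unadjusted p = 0.094, DESeq2 adjusted p = 1). None passed the adjusted threshold of 0.05. Without ctrl tumour 1 the log2 fold change against ctrl was -0.21 (unadjusted p = 0.23, DESeq2 adjusted p = 1), whereas the value against miR-142-5p was -0.22 (unadjusted p = 0.22, DESeq2 adjusted p = 1) when tumour 2 of that group was left out. Other omissions widened these values. Against ctrl it was -0.49 without ctrl tumour 2 (unadjusted p = 0.0061, DESeq2 adjusted p = 0.56). Against miR-142-5p it was -0.50 without tumour 3 of that group (unadjusted p = 0.0059, DESeq2 adjusted p = 0.58). Stab1 was the least variable member, and its 95% interval against ctrl ran from -0.71 to -0.03.

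Cd163, the receptor for haptoglobin-haemoglobin complexes, was low and uneven. It was at 1.72, 0.914 and 2.10 TPM in ctrl, at 0.795, 5.13 and 3.59 TPM with miR-142-5p, at 1.27, 3.18 and 0.81 TPM with miR-183-5p and at 4.35, 0.364 and 1.60 TPM with miR-222-3p. The values rest on 23 to 275 estimated reads per tumour, and each EV group held both a tumour under and a tumour over the whole ctrl range. The log2 fold change against ctrl was 0.99 (SE 0.90) for miR-142-5p, with a 95% interval from -0.77 to 2.76, and neither that nor any other Cd163 comparison passed the DESeq2 test (adjusted p = 1 in miR-142-5p against ctrl).

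Marco, the class A receptor of marginal zone, alveolar and some tumour macrophages, had 0 estimated reads in 10 tumours, 19 in miR-142-5p tumour 3 and 3 in miR-222-3p tumour 3. A count of 0 allows up to 3 reads per library, and Marco was not detectable at this depth in any ctrl or miR-183-5p tumour. With 1 tumour above that limit, no fold between groups can be given.

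Clec10a (Mgl1) and Mgl2 are the mouse galactose-type lectins, which bind galactose and N-acetylgalactosamine residues, and lie beside each other on chromosome 11 with 18646 bases and no annotated gene between them (Mgl2 at chr11:70130329-70137550 and Clec10a at chr11:70156197-70170834, both plus strand, GRCm38). Clec10a was at 16.2, 10.1 and 7.97 TPM in ctrl, at 6.33, 15.9 and 12.5 TPM with miR-142-5p, at 8.40, 7.28 and 4.11 TPM with miR-183-5p and at 11.5, 8.47 and 4.15 TPM with miR-222-3p. Mgl2 was at 61.7, 39.7 and 51.3 TPM in ctrl, at 32.5, 50.7 and 49.7 TPM with miR-142-5p, at 42.4, 44.3 and 17.2 TPM with miR-183-5p and at 56.3, 22.6 and 24.0 TPM with miR-222-3p. Both genes overlapped between every pair of groups.

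Mgl2 stood 2.67 to 6.44 times above Clec10a in TPM, and above it in every tumour. In normalised counts, Clec10a differed from ctrl by a log2 fold change of -0.80 (SE 0.42) with miR-183-5p and -0.57 (SE 0.42) with miR-222-3p, and Mgl2 by -0.54 (SE 0.37) and -0.61 (SE 0.37), with a DESeq2 adjusted p of 1 in each. Without ctrl tumour 1, Clec10a was at -0.37 and -0.14 and Mgl2 at -0.31 and -0.38, and without miR-183-5p tumour 3 the first Mgl2 value was -0.22. Of the 1466 stretches of 31 bases in Clec10a-202, 362 (24.7%) also occur in Mgl2, so that the split of reads between these genes rests on the remainder of their length, and the ratio between them is uncertain.

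Folr2, folate receptor beta of tissue macrophages, was at 15.9, 12.6 and 27.2 TPM in ctrl and at 13.9, 32.4 and 25.3 TPM with miR-142-5p. It was at 14.1, 14.2 and 5.85 TPM with miR-183-5p and at 31.7, 5.92 and 14.4 TPM with miR-222-3p. The miR-222-3p tumours spanned nearly the whole range of the 12. Between the miR-183-5p and the miR-142-5p tumours, at 136 ± 57.3 and 281 ± 105 normalised counts (SD, n = 3), the log2 fold change was -1.05 (SE 0.49, 95% interval -2.02 to -0.08, unadjusted p = 0.034), which did not pass after adjustment (DESeq2 adjusted p = 0.57). The normalised counts of these groups did not overlap, but their TPM values did. The log2 fold change between them was -1.29 without miR-142-5p tumour 1 (unadjusted p = 0.016, DESeq2 adjusted p = 0.22). It was -0.73 without miR-183-5p tumour 3. The log2 fold change of miR-183-5p against ctrl was -0.67 (SE 0.50, DESeq2 adjusted p = 1), and -0.36 either without miR-183-5p tumour 3 or without ctrl tumour 3. It was -0.89 without ctrl tumour 2.

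Chil3 (Ym1), a chitinase-like protein secreted by alternatively activated macrophages and by neutrophils, was near the detection limit. It had 19, 5 and 26 estimated reads in the ctrl tumours, 9, 16 and 14 with miR-142-5p, 13, 14 and 15 with miR-183-5p and 14, 9 and 9 with miR-222-3p. Ctrl held both the lowest and the highest tumour. Ctrl tumour 3 was at 2.32 TPM, against at most 0.913 TPM in the other 11 tumours, and only 49.7% of its TPM was assigned to the protein-coding transcript, against 100% in the others. Against ctrl, the log2 fold change was -1.30 (SE 0.70) for miR-222-3p, -0.85 (SE 0.69) for miR-142-5p and -0.89 (SE 0.69) for miR-183-5p, each with a DESeq2 adjusted p of 1. Without ctrl tumour 3 these were -0.44, 0.0018 and -0.04. Of the 1509 stretches of 31 bases of Chil3-201, 44.8% occur in other genes, mostly the paralogue Chil4, which was listed at 0 reads in every tumour.

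Retnla (Fizz1, Relm-alpha), a secreted protein strongly induced by interleukin-4, had 0, 0 and 1 estimated reads in ctrl, 4, 2 and 1 with miR-142-5p, 5, 0 and 7 with miR-183-5p and 1, 2 and 5 with miR-222-3p. Against the limit of 3 reads that a count of 0 allows, miR-142-5p tumour 1, miR-183-5p tumours 1 and 3 and miR-222-3p tumour 3 lay above it and the other 8 tumours, ctrl included, at or under it. With every group holding tumours under the limit, no fold between groups is given. Its paralogue Retnlg, a product of neutrophils, was at 30.7 to 133 TPM.

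The window from 250 bases before to 50 bases after the start of each gene in RefSeq (GRCm38.p6) was searched for the palindromes TTCNNNGAA and TTCNNNNGAA, the spacings bound by STAT dimers, of which Stat6 favours the longer. Windows were at hand for Mrc1, Cd163, Marco, Stab1, Mgl2, Retnla, Chil3 and Folr2, and those of Msr1 and Clec10a were not analysed here. The longer spacing was found in Retnla alone and the shorter in Chil3 alone, where 6.95% and 8.30% of 32841 windows of that length hold one. They are shown because they are the 2 interleukin-4-induced members that lay at the bottom of the range, with the motif in capitals. The Retnla stretch (chr16:48842454-48842483, plus strand) starts its motif 145 bases before the gene's start, and the Chil3 stretch (chr3:106167718-106167746, minus strand) 172 bases before.
Retnla: agaatcataaTTCACAAGAAattgctaaac
Chil3: aaatacccacTTCTTAGAAacatagctat

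A match is a description of the letters, and binding was not measured.

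Across the 8 tested genes, no member was called in any comparison. With miR-142-5p against ctrl, 0 of 8 passed the DESeq2 test at an adjusted p of 0.05 and 0 of 8 had an unadjusted p under it, where 0.00649% and 3.56% of all genes did; 0 of 8 did not overlap, against 6.07% of all genes. The members were split, 4 lower and 4 higher (51.2% of all genes were lower), with a median log2 fold change of -0.003 against -0.005 over all genes tested. By edgeR and limma the counts were also 0 of 8 at either threshold. Without ctrl tumour 2, 6 of 8 were lower and Chil3 had an unadjusted p under 0.05 (DESeq2). Without ctrl tumour 1, 2 of 8 were lower and none had.

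With miR-183-5p against ctrl, 7 of 8 members were lower, Cd163 being the exception, where 52.7% of all genes were lower. The median log2 fold change was -0.58, against -0.01 over all genes tested. Of the 8, 0 passed the adjusted threshold, as did 0% of all genes. Stab1 alone had an unadjusted p under 0.05 (3.22% of all genes did) by DESeq2, edgeR and limma, and it alone did not overlap ctrl (9.17% of all genes did not). Other settings named other members. Without the length offset Msr1 alone was under 0.05, with Stab1 at an unadjusted p of 0.11 (DESeq2). With the replicate block, and with only the 2 groups compared, Stab1 and Clec10a were under it. Msr1 alone was under it without ctrl tumour 1, and Clec10a alone without ctrl tumour 3. Without ctrl tumour 2, Msr1, Stab1 and Chil3 were under it, with 8 of 8 lower and a median of -0.80. Without miR-183-5p tumour 3, which leaves libraries of 1 set by the Gm28661 share, the median was -0.35 with 7 of 8 still lower, and no member then had an unadjusted p under 0.05.

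Markers of other cell types are given beside this direction. Of 12 macrophage markers, 11 were lower with miR-183-5p than in ctrl, with a median log2 fold change of -0.43, and their sum was at 4918, 4620 and 2500 TPM against 5905, 4229 and 6901 TPM in ctrl. Neutrophil markers summed to 2430 to 3467 TPM against 1509 to 2218 TPM in ctrl over 11 genes. Of these, 8 were higher and 3 lower, with a median log2 fold change of 0.19. The highest, S100a9, averaged 1504 TPM against 954 TPM in ctrl, while Camp averaged 2.77 against 5.92 TPM. Fibroblast markers summed to 924 to 1115 TPM against 401 to 911 TPM over 8 genes, 7 higher and 1 lower, with a median of 0.67. Of the endothelial markers, 7 of 7 tested were lower, with a median log2 fold change of -0.17 (also 7 of 7 against miR-142-5p and against miR-222-3p, with medians of -0.20 and -0.31). Their sum over 8 genes, at 117 to 145 TPM, overlapped that of ctrl, at 119 to 186 TPM. Of the dendritic cell markers, 6 of 7 tested were lower, with a median of -0.25 and a sum of 727 to 874 TPM against 831 to 1180 TPM in ctrl over 8 genes. None of these markers passed the DESeq2 test. The part of these values, and of the muscle transcripts of tumour 3, in the lower levels of the 7 members was not tested. In whole tumours, fewer cells of a type and less RNA per cell cannot be told apart.

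With miR-222-3p against ctrl, 7 of 8 members were lower, Cd163 again being the exception, with a median of -0.16 against -0.01 over all genes tested, of which 52% were lower. Without ctrl tumour 3, 4 of 8 were lower, with a median of -0.03, and without miR-222-3p tumour 2 also 4 of 8, with a median of -0.12. Without ctrl tumour 2, 7 of 8 were lower, with a median of -0.40, and Chil3 had an unadjusted p under 0.05 (DESeq2). The counts that follow are with all tumours. None of the 8 passed the adjusted threshold, which 0.026% of all genes passed, and 0 of 8 had an unadjusted p under 0.05 (2.29% of all genes) by DESeq2, edgeR or limma. None was without overlap with ctrl, against 5.5% of all genes. The largest log2 fold changes were those of Chil3, at 7.5 to 12.4 normalised counts, and of Mgl2. These 3 comparisons share the ctrl tumours, so ctrl tumour 3, the highest in Msr1 and Chil3, enters each.

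**Figure D2:**
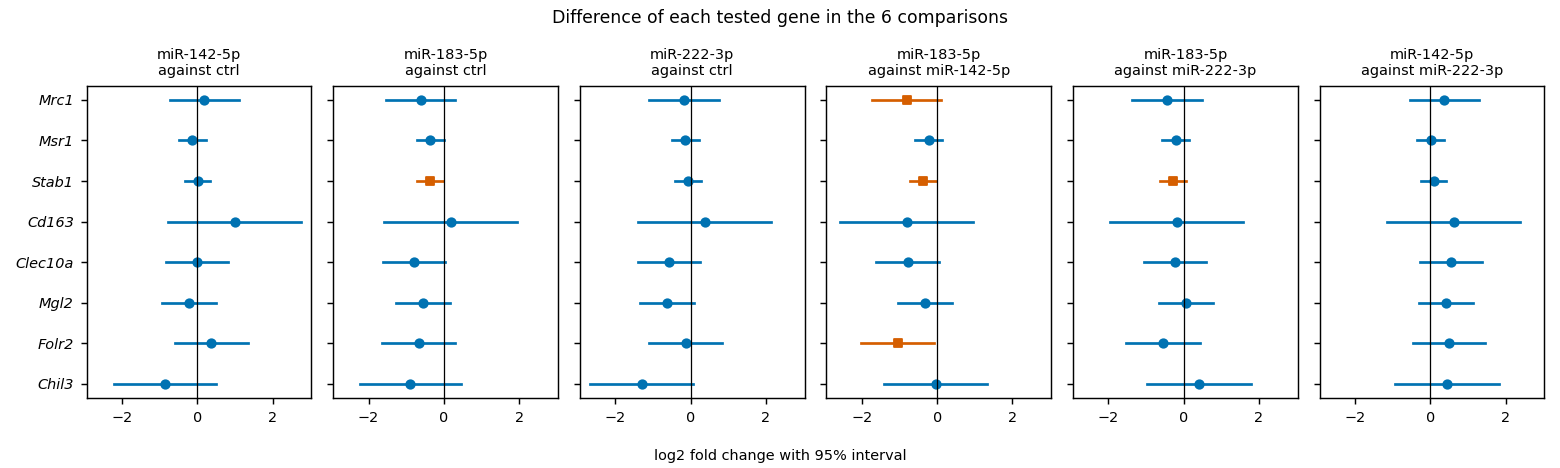
Log2 fold change of the 8 tested genes (horizontal axis, points) with its 95% interval (lines) from DESeq2 in the 6 comparisons (panels), with orange squares for genes whose normalised counts did not overlap between the groups and blue circles for the others. The intervals of Stab1 in miR-183-5p against ctrl and of Stab1 and Folr2 in miR-183-5p set against the miR-142-5p tumours end just under 0, and all others include 0.

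The EV groups were then compared with each other. Between the miR-183-5p and miR-142-5p tumours 8 of 8 members were lower (50.5% of all genes were), from -0.04 for Chil3 to -1.05 for Folr2 with a median of -0.58. At the adjusted threshold 0 of 8 passed, where 0.0519% of all genes did. Stab1 and Folr2 had an unadjusted p under 0.05 by DESeq2 (7.95% of all genes did), and Stab1 alone by edgeR, by limma and without the length offset. With only the 2 groups compared Clec10a joined Stab1 and Folr2, and with the replicate block Clec10a and Mrc1 did. Mrc1, Stab1 and Folr2, 3 of 8, did not overlap, against 12.3% of all genes. Without miR-183-5p tumour 3 the median was -0.40, with 8 of 8 lower and 0 with an unadjusted p under 0.05, and without tumour 2 of miR-142-5p it was -0.23, with 7 of 8 lower and 0 under that p. Without tumour 1 of miR-142-5p it was -0.71, with 8 of 8 lower and Clec10a and Folr2 under that p. All 12 macrophage markers were lower too, with a median of -0.53.

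In miR-183-5p against miR-222-3p, 6 of 8 members were lower (50.8% of all genes were), with Mgl2 at 0.07 and Chil3 at 0.41 on the other side, and the median was -0.22. The adjusted threshold was passed by 0 of 8 members and 0.0324% of all genes, the unadjusted by 0 of 8 and 3.24%, with the same 0 of 8 by edgeR and limma. With only the 2 groups compared, Stab1 had an unadjusted p of 0.025 (DESeq2). Stab1 did not overlap, 1 of 8 against 9.06% of all genes. In miR-142-5p against miR-222-3p, 8 of 8 members were higher (49% of all genes were lower), from 0.01 for Msr1 to 0.62 for Cd163. None passed either threshold by DESeq2, edgeR or limma, where 0.0389% and 3.59% of all genes did by DESeq2, and none was without overlap (6.2% of all genes).

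Over the 4 groups together, the likelihood ratio test of DESeq2 called 0 of 8 members, where it called 0.0584% of all genes. It gave 0 of 8 members (also 0 by edgeR and limma) and 4.74% of all genes an unadjusted p under 0.05, the lowest of the 8 being those of Stab1 and Clec10a (DESeq2 adjusted p = 1 for both). Without the length offset, Msr1 had an unadjusted p of 0.038 in this DESeq2 test. The 95% intervals show what the design could have seen: against ctrl, that of Msr1 ran from -0.71 to 0.23 on the log2 scale across the 3 comparisons, and that of Cd163 from -1.58 to 2.76.

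The spread within groups was as wide as that between them for most members, and it was shared among them. Mrc1, Cd163, Mgl2 and Folr2 were low together in miR-183-5p tumour 3 and in miR-222-3p tumour 2 and high together in miR-142-5p tumour 2 and miR-222-3p tumour 1. miR-183-5p tumour 3 was the lowest of the 12 in Mrc1, Stab1, Clec10a, Mgl2 and Folr2 by TPM, and also in the sum of the macrophage markers. Over the 12 tumours, Pearson's r of log2(normalised count + 1) was 0.89 between Mrc1 and Folr2, with a Spearman's rho of 0.92, 0.80 without the 2 tumours farthest from the median of Mrc1 and 0.86 for deviations from the group means.

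**Figure D3:**
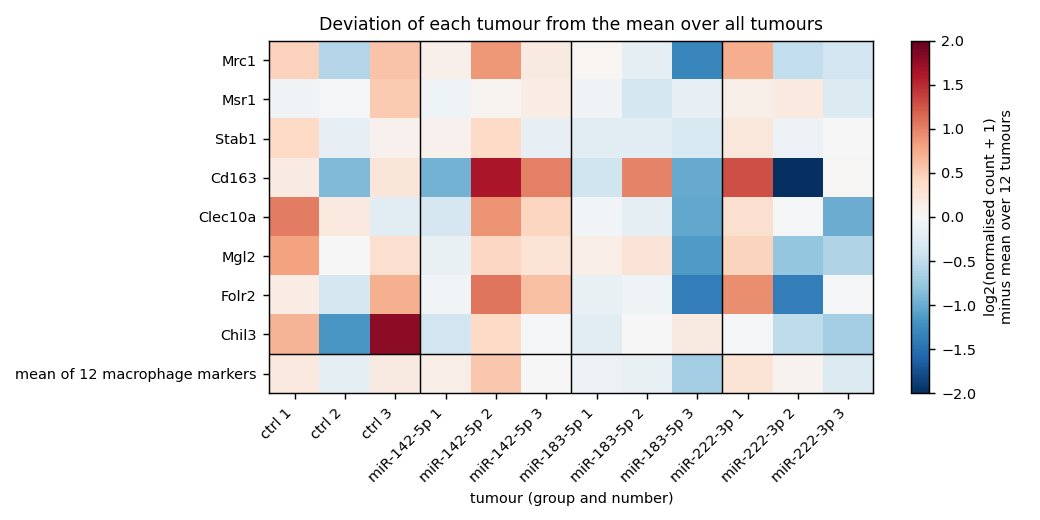
Log2(normalised count + 1) minus its mean over the 12 tumours (colour, red higher and blue lower, ending at 2 either way) for the 8 tested genes and for the mean of the 12 macrophage markers (rows) in each tumour (columns, ordered by group). miR-183-5p tumour 3 lies under the mean in 7 of the 8 genes, Chil3 being the exception, and in the marker mean, and Msr1 and Stab1 vary least.

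Cd163 and Folr2 had an r of 0.86 (rho 0.88, 0.74 without the 2 farthest tumours), Mrc1 and Mgl2 0.85 (rho 0.87, 0.74) and Clec10a and Mgl2, which share sequence, 0.80 (rho 0.74, 0.62). Msr1 kept apart from this set: its r was 0.45 with Mrc1, 0.31 with Folr2, 0.24 with Mgl2 and 0.01 with Cd163. The 28 pairs are given as a description; the tumours share their normalisation, and genes of the same cell type share its amount in each piece of tumour.

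**Figure D4:**
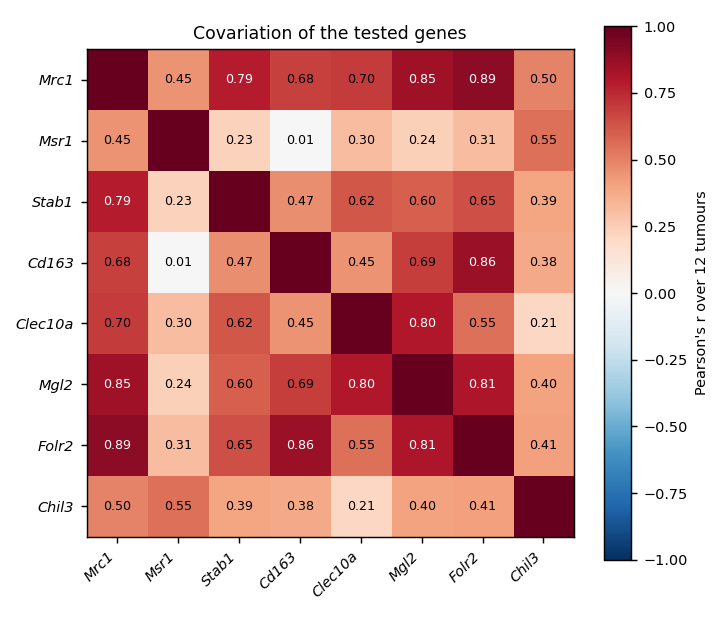
Pearson's r over 12 tumours (colour and printed value) of log2(normalised count + 1) between each pair of the 8 tested genes (both axes). Mrc1, Mgl2 and Folr2 reach 0.81 to 0.89 with each other, and Msr1 stays at or under 0.55 with every other member.

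With the mean of the 12 macrophage markers, r was 0.91 for Mrc1 (rho 0.90, 0.79 without the 2 farthest tumours) and 0.80 for Stab1 (rho 0.85, 0.69), and it was 0.77 for Clec10a, 0.71 for Folr2 and 0.71 for Mgl2. It was 0.50 for Msr1 (rho 0.54, 0.62), 0.46 for Cd163 (rho 0.55, 0.12) and 0.34 for Chil3 (rho 0.49, 0.58). Chil3 was thus the lowest over all 12 tumours, and Cd163 the lowest without the 2 farthest.

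Among 11334 other genes with a mean normalised count of at least 100, Mrc1 was most like Fcgrt (r = 0.97), the neonatal Fc receptor, and Ltbp4 (r = 0.97), which binds latent TGF-beta. Folr2 was most like Fcrls (r = 0.97) and Npl (r = 0.95), and Cd163 like AC149090.1 (r = 0.94) and Slc22a23 (r = 0.88). Mgl2 went with Myh14 (r = 0.94) and Upf3b (r = 0.92), Clec10a with Rnpc3 (r = 0.92) and Tlr12 (r = 0.91), Stab1 with Prl8a1 (r = 0.92) and Tmem141 (r = 0.91), Msr1 with Pigb (r = 0.91) and Mfap3 (r = 0.89), and Chil3 with Zfp729b (r = 0.89) and Zfp790 (r = 0.88). With 12 tumours and so many genes, high values of r arise for every gene.

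The gene level hides which transcripts make it up. By TPM, Stab1 was quantified mostly from transcripts annotated with a retained intron: its protein-coding transcripts held 10.1% to 33.6% of its TPM (median 20.5%). By estimated reads, on which the tests rest and which count a long transcript more, they held 37.1% to 67.2% (median 53.5%). The full-length Stab1-201, of 7999 bases, was at 11.1, 18.6 and 29.1 TPM in ctrl and at 18.8, 12.6 and 14.4 TPM with miR-183-5p, and these groups overlapped. Summed over coding transcripts alone, the log2 fold change of Stab1 with miR-183-5p was -0.39 against ctrl with an unadjusted p of 0.26 (DESeq2 adjusted p = 1), so that the direction stayed and the unadjusted p did not.

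Mrc1 was 47.4% to 93.1% coding by TPM. Its retained-intron transcript Mrc1-202 was at 22.6 TPM in ctrl tumour 1 and at 1.59 TPM in ctrl tumour 2, and the coding Mrc1-201 was near equal in these tumours (20.4 and 21.4 TPM). Msr1 was 66.0% to 90.9% coding, and its processed transcript Msr1-205, of 421 bases, ran from 9.74 TPM in ctrl tumour 1 to 75.3 TPM in ctrl tumour 3. Without it, the coding Msr1 TPM of ctrl tumour 3 was 153, against 231 for the gene.

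**Figure D5:**
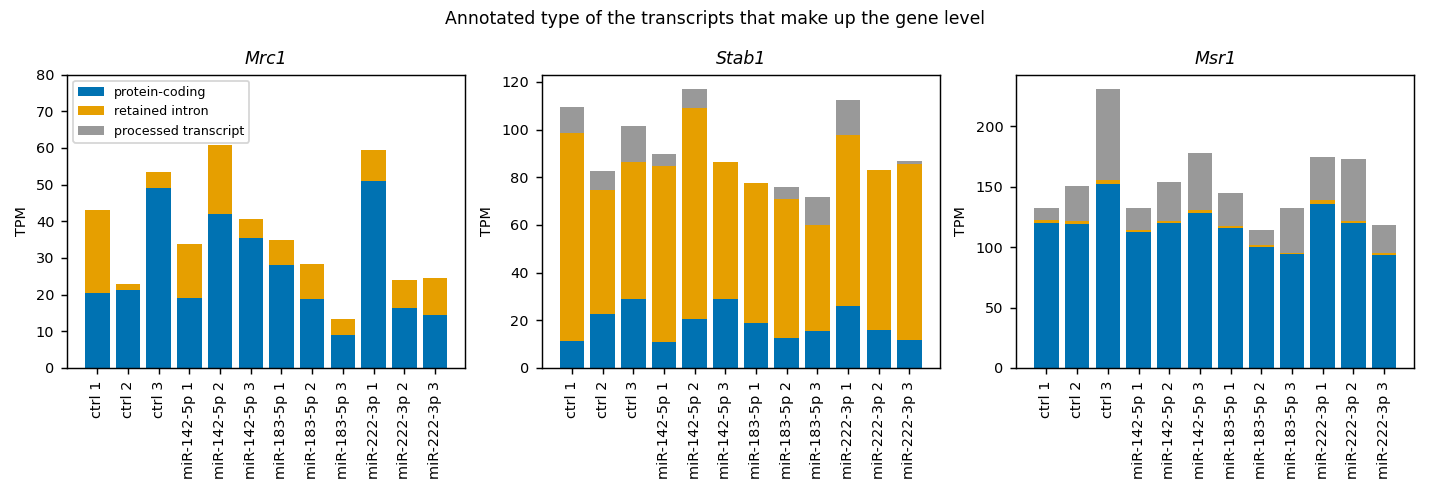
TPM of Mrc1, Stab1 and Msr1 (panels, bars from 0) in each of the 12 tumours, split by the annotated type of the transcripts (blue, protein-coding; orange, retained intron; grey, processed transcript). Retained-intron transcripts make up most of the Stab1 TPM in every tumour, and the high Msr1 of ctrl tumour 3 holds 75.3 TPM of a short processed transcript.

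The genes that act upstream of the members were measured in the same tumours. Il4 was at 5.50 to 11.6 TPM and Il13 at up to 0.472 TPM with at most 8 reads, while their receptor chains Il4ra (59.2 to 84.9 TPM) and Il13ra1 (77.3 to 119.8 TPM) and the transcription factor Stat6 (90.8 to 122.8 TPM) were well above. Of 17 genes of interleukin-4 and interleukin-13 signalling, 16 passed the read filter and 0 were called as rising or falling in any of the 6 comparisons. Of these 16, Irf4 received no p-value in the test over the 4 groups. Il4ra had the lowest unadjusted p of the list with miR-142-5p (log2 fold change 0.25, SE 0.10, DESeq2 adjusted p = 0.99) and with miR-183-5p (0.20, SE 0.10, DESeq2 adjusted p = 1), and Socs1, an inhibitor of the pathway, with miR-222-3p (-0.52, SE 0.35, DESeq2 adjusted p = 1). The list's median log2 fold change against ctrl was -0.06 with miR-222-3p, 0.10 with miR-142-5p and -0.08 with miR-183-5p.

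Of 19 other genes of alternative activation, 13 were tested and 0 rose or fell. Arg1, the arginase that consumes arginine, had the highest median of the list and was at 326 to 725 TPM, more than any of the 10 members in every tumour, and Chil4 and Retnlb the lowest with 0 reads. The chemokine Ccl22 had the lowest unadjusted p with miR-142-5p (log2 fold change 1.88, SE 0.82, DESeq2 adjusted p = 1), Retnlg with miR-183-5p (0.66, SE 0.37, DESeq2 adjusted p = 1) and Tgm2, transglutaminase 2, with miR-222-3p (-0.28, SE 0.22, DESeq2 adjusted p = 1). Ccl22 averaged 9.04 TPM with miR-142-5p, against 2.37 TPM in ctrl, and that mean rested largely on its highest tumour, at 22.4 TPM. The medians against ctrl were -0.15 with miR-222-3p, 0.03 with miR-142-5p and -0.10 with miR-183-5p.

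Of 22 other scavenger receptors, 20 were tested and 0 rose or fell. The highest was Lrp1, a receptor for many ligands, at 215.6 to 293 TPM, and the lowest Cd5l, with at most 11 reads. Mertk, the receptor tyrosine kinase for dying cells, had the lowest unadjusted p with miR-142-5p (log2 fold change 0.35, SE 0.20, DESeq2 adjusted p = 1), Scara5, a ferritin receptor, with miR-183-5p (-1.33, SE 0.50, DESeq2 adjusted p = 1) and Colec12 with miR-222-3p (0.24, SE 0.15, DESeq2 adjusted p = 1). The medians against ctrl were 0.09 with miR-222-3p, 0.10 with miR-142-5p and -0.01 with miR-183-5p, beside the -0.58 of the 8 members with the last.

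Of the 10 genes of interleukin-10 and CSF1 signalling, all were tested and 0 rose or fell. Csf1, the macrophage growth factor, was at 75.1 to 119 TPM and Il10 at 0.359 to 3.97 TPM. Il10rb had the lowest unadjusted p with miR-142-5p (log2 fold change 0.22, SE 0.15, DESeq2 adjusted p = 1) and Il10ra with miR-183-5p (-0.50, SE 0.22, DESeq2 adjusted p = 1). The medians against ctrl were 0.07 with miR-222-3p, 0.11 with miR-142-5p and -0.07 with miR-183-5p. Csf1r, the receptor, had a log2 fold change of -0.44 (SE 0.22, DESeq2 adjusted p = 1) with miR-183-5p.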

How the data were processed

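RNA from 12 4T1 tumours (poly(A)-selected, stranded, paired-end) had been quantified by the authors with Salmon on mouse transcripts of GRCm38. The deposited values, per transcript and tumour, are estimated counts (not normalised) and TPM, which the authors' tool scales by effective length and depth. Transcripts were matched to GENCODE M21 genes (GRCm38), where 98.3% matched and 0.633% to 0.671% of reads did not, and both values were summed per gene.

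The 15459 genes that reached 10 reads in 3 or more tumours were rounded and tested over all 12 tumours in DESeq2 1.42.0 with transcript-length offsets and group as the only term, by the Wald test for the 6 comparisons and the likelihood ratio test for the 4 groups, with Benjamini-Hochberg adjustment over all genes and a threshold of 0.05. Alternatives were edgeR 4.0.16 (quasi-likelihood, TMM), TMM factors in DESeq2, no filter, counts without the length offset, fits of the compared groups alone, a block on replicate number, limma 3.58.1 on log2(TPM + 1), leaving out each tumour and, chosen after seeing the data, coding transcripts only. In the main fit, 15413 of the 15459 genes received an unadjusted p in each comparison. The tests across genes were checked on simulated data. Intervals are 95% and the limit for a count of 0 is 3 reads, for counting error only.

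The members and gene lists were chosen with earlier results of these data known. Named from each list were genes past the threshold in any comparison, the gene with the lowest unadjusted p in each comparison against ctrl and the highest and lowest by level; 1 gene that this names is not reported here. For each member, the 2 genes of highest Pearson's r were named. Marker genes of monocytes, dendritic cells, endothelium, adipocytes and skin were also listed. Of all marker lists, 0 genes passed the threshold in any of the 6 comparisons. The muscle markers Acta1 and Ckm received no p-value in the test over the 4 groups. Seed matches were sought in 3′ UTRs of the coding transcript of highest mean TPM. A sequence for cel-miR-67 was not used here. Replicate libraries differed (highest correlation between libraries 0.99), and none was counted as a duplicate.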

Additional observations from a re-analysis of the deposited data

How the results depend on the processing

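No member was called under any alternative: over 103 combinations of comparison and setting the count stayed at 0 of 8, and the lowest adjusted p of any member was 0.21 (Folr2 between the miR-183-5p and miR-142-5p tumours, DESeq2 on these groups alone). The number of genes called among all genes did depend on the setting, from 0 in each comparison to 75 (miR-142-5p against ctrl) and 415 (miR-183-5p against miR-142-5p) without miR-142-5p tumour 1, where 1 and 8 were called with all tumours, to 72 in miR-142-5p against miR-222-3p and 239 over the 4 groups without that tumour (6 and 9 with all), and to 37, 15 and 17 with only the groups compared in miR-183-5p against ctrl, miR-222-3p against ctrl and miR-183-5p against miR-222-3p (0, 4 and 5 with all groups). The cause was not tested.

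The direction of small differences turned on single tumours. Leaving out each tumour in turn, the log2 fold change ran, in miR-142-5p against ctrl, from -1.35 to 0.0018 for Chil3, -0.33 to 0.41 for Clec10a, -0.38 to 0.028 for Mgl2, -0.093 to 0.40 for Mrc1, -0.23 to 0.094 for Msr1 and -0.15 to 0.17 for Stab1. In miR-222-3p against ctrl it ran from -0.62 to 0.87 for Cd163, -0.80 to 0.28 for Folr2, -0.67 to 0.037 for Mrc1, -0.25 to 0.083 for Msr1 and -0.20 to 0.082 for Stab1, and in miR-183-5p against ctrl from -0.60 to 0.53 for Cd163. In miR-183-5p against miR-222-3p it ran from -0.97 to 0.81 for Cd163, -0.52 to 0.074 for Clec10a, -0.95 to 0.13 for Folr2, -0.17 to 0.56 for Mgl2 and -0.71 to 0.059 for Mrc1, for Chil3 between miR-183-5p and miR-142-5p from -0.22 to 0.21, and in miR-142-5p against miR-222-3p from -0.12 to 0.11 for Msr1 and -0.070 to 0.21 for Stab1. Stab1 in miR-142-5p against ctrl was -0.0036 by limma and -0.047 over coding transcripts, and Cd163 in miR-183-5p against ctrl -0.052 over coding transcripts.

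The labels do not say what the replicate numbers stand for. Deviations of same-numbered tumours from their group means had a mean correlation of -0.04 (-0.44 to 0.22), and 4 of 12 tumours correlated best with their own number. No pairing was seen, but these values cannot exclude one. With the replicate block 0 of 8 members were called in each comparison, and Clec10a in miR-142-5p against ctrl changed sign, to 0.10.

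SEs of 0.17 to 0.90 on the log2 scale bound what 3 tumours a group could show, from Stab1 to Cd163. Marco and Retnla are limited by depth, and reads shared between Clec10a and Mgl2 or between Chil3 and Chil4 by sequence.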

Other observations

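The members were also set against the macrophages of each tumour, a measure chosen after the data were seen: log2(normalised count + 1) of each gene minus the mean of the 12 macrophage markers, with the exact two-sided permutation test of 3 against 3 tumours, whose smallest p is 0.1. On this measure Stab1 differed by 0.03 between miR-183-5p and ctrl (exact permutation p = 0.9) and Msr1 by 0.05 (exact permutation p = 0.9), Mrc1 by -0.26 (exact permutation p = 0.5), Folr2 by -0.33 (exact permutation p = 0.6) and Clec10a by -0.38 (exact permutation p = 0.5). Stab1, whose miR-183-5p tumours lay apart from the other 9, overlapped every group on this measure. Mgl2 had the widest difference with miR-222-3p among the members other than Chil3, -0.64 (exact permutation p = 0.2). Over the 48 differences of 8 members in 6 comparisons, the groups did not overlap in 1, Chil3 in miR-183-5p against miR-222-3p, where it differed by 0.73 (exact permutation p = 0.1) on 9 to 15 reads per tumour. The markers and the members come from the same libraries, and a change in the markers themselves would enter each difference.

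Over the 10 genes, the summed level was 381, 320 and 477 TPM in ctrl, 311, 437 and 398 TPM with miR-142-5p, 325, 288 and 248 TPM with miR-183-5p and 452, 318 and 275 TPM with miR-222-3p, of which Msr1 and Stab1 made up most in every tumour.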
